A study of Mus musculus with 2 samples.

Results

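The fatty acid oxidation genes described here are 8 liver genes: Ppara, Cpt1a, Cpt2, Acadm, Acadl, Hadha, Ehhadh and Pdk4. They were chosen by name, and their probes were those non-control probes whose transcript accession belongs to one of the 8 in RefSeq, which gave 12 probes and 23 spots. The array holds 20284 genes with such an accession, on 55681 non-control probes and 59305 non-control spots in all. Total liver RNA came from male C57BL/6 mice with liver fibrosis. In the TSG-6 group, recombinant TSG-6 protein (labelled Rh_TSG-6), a secreted hyaluronan-binding protein, was injected intravenously. In the PBS group, the vehicle alone was given. Both groups were fibrotic, and neither the way fibrosis was induced, the protein dose nor the age of the mice is given in the sources used here. Livers were sampled 2 weeks later. Equal amounts of RNA from 3 mice were pooled for each group and put on 1 one-colour Agilent array. With 1 array per group there is no replicate: no test was possible, no p-value or SE is given, and every difference is that between these 2 pools.

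Fatty acids are burned in liver mitochondria by repeated rounds of beta oxidation, which shorten an acyl-CoA chain and release acetyl-CoA, much of which the fasting liver turns into ketone bodies. Long chains enter the mitochondrion only as carnitine esters, and this entry is the main point of control. The nuclear receptor PPAR-alpha, activated by fatty acids, switches on many genes of the pathway together with its partner, the retinoid X receptor. Very long and branched chains are shortened first in peroxisomes, by a separate set of enzymes.

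PPAR-alpha is known to bind a direct repeat of the half-site AGGTCA with 1 base between, so the promoters of the members were searched on both strands for AGGTCANAGGTCA and for AGGTCA. The window ran from 250 bases before to 50 bases after the annotated start, from RefSeq on GRCm38.p6, and all 8 members had 1 entry. None of the 8 held the direct repeat, which 0.0396% of 32851 promoters of all genes held. The half-site, which is part of the direct repeat, occurred in 2 of 8, against 16.3% of all promoters. The 2 promoters with a half-site are shown, and that of Pdk4, the member with the largest difference between the arrays, beside them. Capitals mark the half-site, here on the reverse strand as TGACCT; its first printed base lies 94 bases before the start in Cpt1a and 249 bases before it in Acadm. A match is a match of letters only, and the window holds no distal elements. The Cpt1a window is chr19:3323051-3323350 on the plus strand, that of Acadm chr3:153944594-153944893 on the minus strand, and that of Pdk4 chr6:5496229-5496528 on the minus strand.
Cpt1a: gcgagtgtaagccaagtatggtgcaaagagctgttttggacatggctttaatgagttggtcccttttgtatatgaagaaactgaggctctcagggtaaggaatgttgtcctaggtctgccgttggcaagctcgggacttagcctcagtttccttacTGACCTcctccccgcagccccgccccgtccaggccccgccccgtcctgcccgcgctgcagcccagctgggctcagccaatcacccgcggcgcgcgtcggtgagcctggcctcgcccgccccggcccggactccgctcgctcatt
Acadm: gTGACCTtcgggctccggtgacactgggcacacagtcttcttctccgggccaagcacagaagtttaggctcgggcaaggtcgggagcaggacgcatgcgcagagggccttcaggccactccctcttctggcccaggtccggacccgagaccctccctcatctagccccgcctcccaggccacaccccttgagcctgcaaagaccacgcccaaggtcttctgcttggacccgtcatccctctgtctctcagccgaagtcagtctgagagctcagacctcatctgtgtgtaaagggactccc
Pdk4: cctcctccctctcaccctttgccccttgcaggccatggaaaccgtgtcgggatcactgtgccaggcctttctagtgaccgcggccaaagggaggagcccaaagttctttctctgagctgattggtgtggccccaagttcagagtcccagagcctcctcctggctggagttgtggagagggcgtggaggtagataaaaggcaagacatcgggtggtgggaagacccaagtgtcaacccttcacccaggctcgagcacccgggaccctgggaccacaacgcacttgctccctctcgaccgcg

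Of the 8 genes, 6 were measured on both arrays, and of these only Pdk4 differed by 2-fold, being 2.21-fold higher in the TSG-6 pool. Cpt1a, the gate of mitochondrial fatty acid entry, was 1.49-fold higher. Ppara, Acadm, Hadha and Cpt2 differed by 1.18-fold or less with their brightest probe. Ehhadh, the peroxisomal bifunctional enzyme, was 2.14-fold higher, but its single spot carried an outlier flag on both arrays.

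A difference here is the log2 processed signal relative to the array's 75th percentile of non-control spots, TSG-6 minus PBS. That percentile was a signal of 2476 on the TSG-6 array and 3158 on the PBS array, so scaling adds 0.35 to every difference of unscaled log2 signals (the ratio of the percentiles was -0.35 on the log2 scale). A gene was called by size, at 2-fold. A 2-fold higher value was seen for 2.94% of the 15151 measured genes and a 2-fold lower one for 4.29%, and the median difference was 0.08, with 57.5% of genes above 0. Of the 4740 genes at least as bright as the dimmest measured member, 1.24% were 2-fold higher and 69.1% lay above 0, and their median was 0.14. Of the genes past 2-fold, 40.7% were higher. That share was 32.8% after quantile normalization, 29.5% with scaling to the median, 29.0% after loess, 13.1% after spike-in scaling and 73.0% with the percentile of unflagged spots. Members past 2-fold made up 1 of 6, too few to set against the background share. The median of the 6 was 0.20, which is 0.13 above the median of all measured genes and 0.06 above that of the 4740 bright genes. All member spots were well above background on both arrays, and none of the array's non-control spots was saturated. Over 327 probes printed more than once, the SD of the difference between spots was 0.13 when pooled, and 0.077 over the 120 probes at least as bright as the dimmest measured member. This SD holds spot noise alone and leaves out the spread between mice. Both arrays lay on the same slide and were scanned at the same time, per the file headers.

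**Figure D1:**
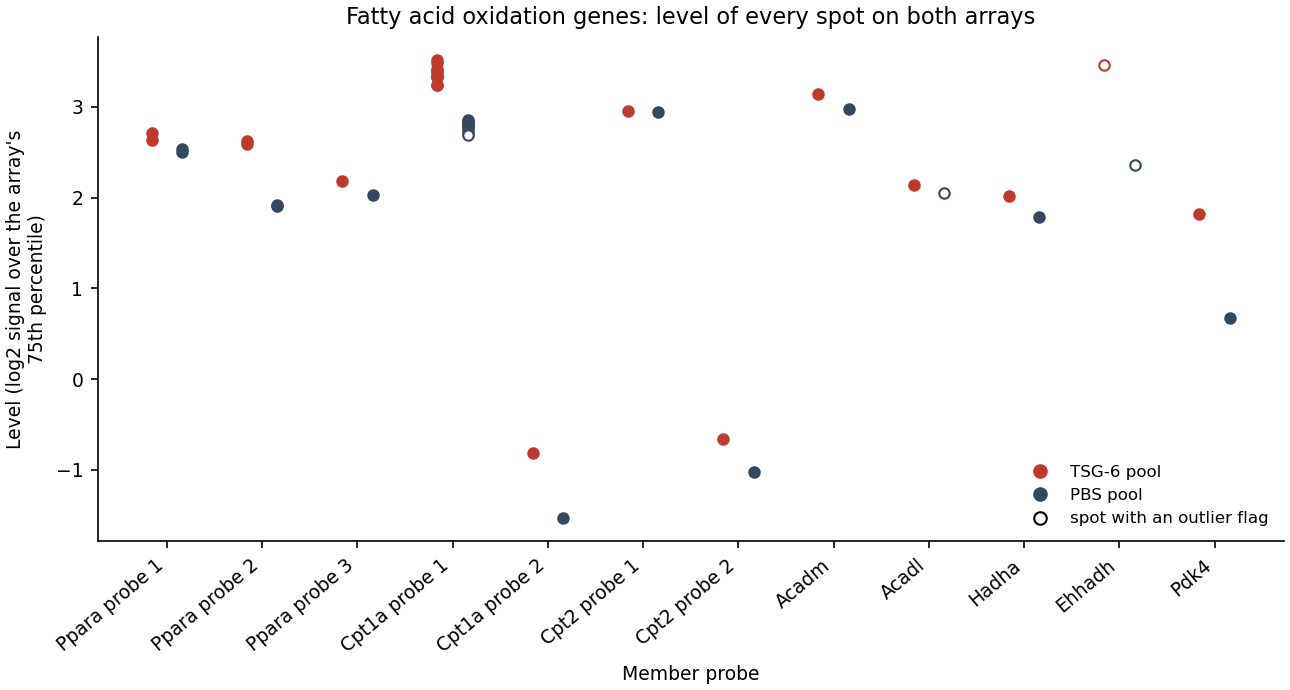
Level of every spot of the 12 member probes (log2 signal over the array's 75th percentile) on the TSG-6 array (red, left) and the PBS array (dark, right); open circles are spots with an outlier flag, and probes of a gene are numbered from the brightest. The Cpt1a spots of the 2 arrays do not overlap, and Pdk4 and Ehhadh show the widest gaps, that of Ehhadh between flagged spots.

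Ppara encodes PPAR-alpha itself and was read by 3 probes. Its brightest probe gave signals of 15380 and 16292 over 2 spots in the TSG-6 pool, against 17896 and 18286 in the PBS pool. After scaling this was a difference of 0.16, 1.12-fold higher in the TSG-6 pool, where the SD between spots of probes this bright was 0.077. The dimmest probe, with 1 spot, gave 11245 in the TSG-6 pool and 12877 in the PBS pool and the same difference of 0.16. The other probe went further: its spots read 14891 and 15214 in the TSG-6 pool against 11879 and 11905 in the PBS pool, a difference of 0.69 or 1.61-fold. The SD over its 2 spots was 0.02, so replicate spots of that probe do not span the gap to the other probes. Which parts of the transcript the 3 probes match was not analysed here.

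Cpt1a encodes the liver form of carnitine palmitoyltransferase I in the outer mitochondrial membrane, which makes the carnitine esters that enter mitochondria and is inhibited by malonyl-CoA. It is the best measured member, since its main probe was printed 10 times. Signals over the 10 spots of the TSG-6 pool ran from 23424 through a median of 25628 to 28425. In the PBS pool the 9 unflagged spots ran from 20477 through a median of 22108 to 22787. Every TSG-6 spot was thus brighter than every unflagged PBS spot, before as well as after scaling. The scaled difference was 0.58, and over the 9 spots unflagged on both arrays it ran from 0.39 to 0.72 with an SD of 0.10. The 10th spot, flagged on the PBS array, read 27673 in the TSG-6 pool and 20374 in the PBS pool. The second probe of Cpt1a, with 1 spot, read 1403 in the TSG-6 pool and 1089 in the PBS pool, a difference of 0.72. Both probes therefore placed Cpt1a higher in the TSG-6 pool, by more than the spot noise.

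Cpt2 encodes carnitine palmitoyltransferase II of the inner membrane, which turns the carnitine esters back into acyl-CoA. Its brighter probe read 19202 in the TSG-6 pool and 24267 in the PBS pool, which after scaling left a difference of 0.01. The dimmer probe read 1572 in the TSG-6 pool and 1547 in the PBS pool, a difference of 0.37. The probes of Cpt2 are thus further apart than the spot noise, and the gene has no difference that both share.

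Acadm and Acadl encode the medium-chain and long-chain acyl-CoA dehydrogenases, which catalyse the opening step of each round, and Hadha encodes the alpha subunit of the trifunctional protein, which carries out later steps on long chains. Each was read by 1 probe with 1 spot. Acadm read 21935 in the TSG-6 pool and 24855 in the PBS pool, a scaled difference of 0.17. Hadha read 10048 in the TSG-6 pool and 10879 in the PBS pool, a scaled difference of 0.24. Acadl read 10915 in the TSG-6 pool and 13065 in the PBS pool, the PBS spot flagged as an outlier, a scaled difference of 0.09 with that spot kept. All 3 had the lower unscaled signal in the TSG-6 pool, and after scaling all 3 lay between 0.02 and 0.16 above the median of all measured genes. Against the median of the 4740 bright genes, Hadha stood 0.10 and Acadm 0.03 higher, and Acadl at -0.05.

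Ehhadh encodes the peroxisomal bifunctional enzyme, which hydrates and then oxidises the shortened chains and is a classical PPAR-alpha target in rodents. Its only spot read 27198 in the TSG-6 pool and 16200 in the PBS pool. With these flagged spots kept, the difference was 1.10, or 2.14-fold. It was 1.09 in the authors' deposited value table, which holds the same spots with nearly the same scaling. Counting it would make 2 of 8 members at least 2-fold higher, where 2.97% of 16427 genes were so with flagged spots kept. The probe was printed once per array, so no other spot checks this value.

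Pdk4 encodes pyruvate dehydrogenase kinase 4, which switches off pyruvate dehydrogenase and so spares glucose when fat is burned. Its single probe read 8732 in the TSG-6 pool and 5039 in the PBS pool. The difference of 1.14 exceeds the spot noise of 0.13 several times over, and 97.9% of all measured genes had a lower one. Without any scaling, the TSG-6 signal was 1.73 times the PBS signal.

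**Figure D2:**
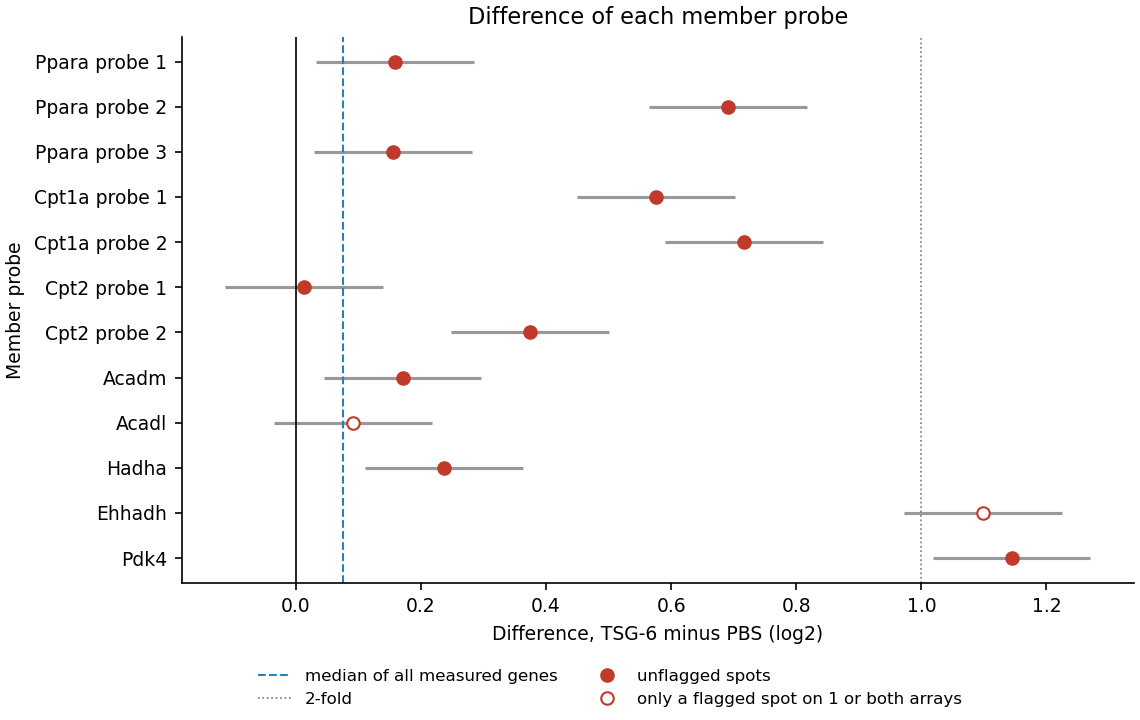
Difference of each of the 12 member probes, TSG-6 minus PBS on the log2 scale, with bars of 1 pooled SD of replicate spots (0.13) that leave out the spread between mice. Pdk4 (1.14) and the flagged Ehhadh spot (1.10) lie past the 2-fold line, the Cpt1a probes lie at 0.58 and 0.72, and the probes of Ppara and of Cpt2 are spread.

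The direction of the smaller differences depended on the scaling. Before scaling, 5 of 8 members had the lower signal in the TSG-6 pool and 3 (Cpt1a, Ehhadh and Pdk4) the higher one, each read by its brightest probe. After scaling to the 75th percentile, all 12 probes lay above 0. With the arrays scaled to the spike-in controls instead, the differences were 0.80 for Pdk4 and 0.23 for Cpt1a, and below 0 for the rest: -0.11 for Hadha, -0.17 for Acadm, -0.19 for Ppara and -0.33 for Cpt2. Pdk4 was then under 2-fold. Spike-in scaling took 0.35 off every difference in the same way, those of the genes below included. Cpt2 was also below 0 after quantile normalization (-0.12), scaling to the median (-0.10), loess (-0.16) and the percentile of detected spots (-0.03), and Acadm after loess (-0.02). The place of the members relative to other genes does not depend on a constant added to an array. Relative to the median of all measured genes, Pdk4 stood 1.07 higher, Cpt1a 0.50, Hadha 0.16, Acadm 0.09 and Ppara 0.08 higher, while Cpt2 stood at -0.06.

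**Figure D3:**
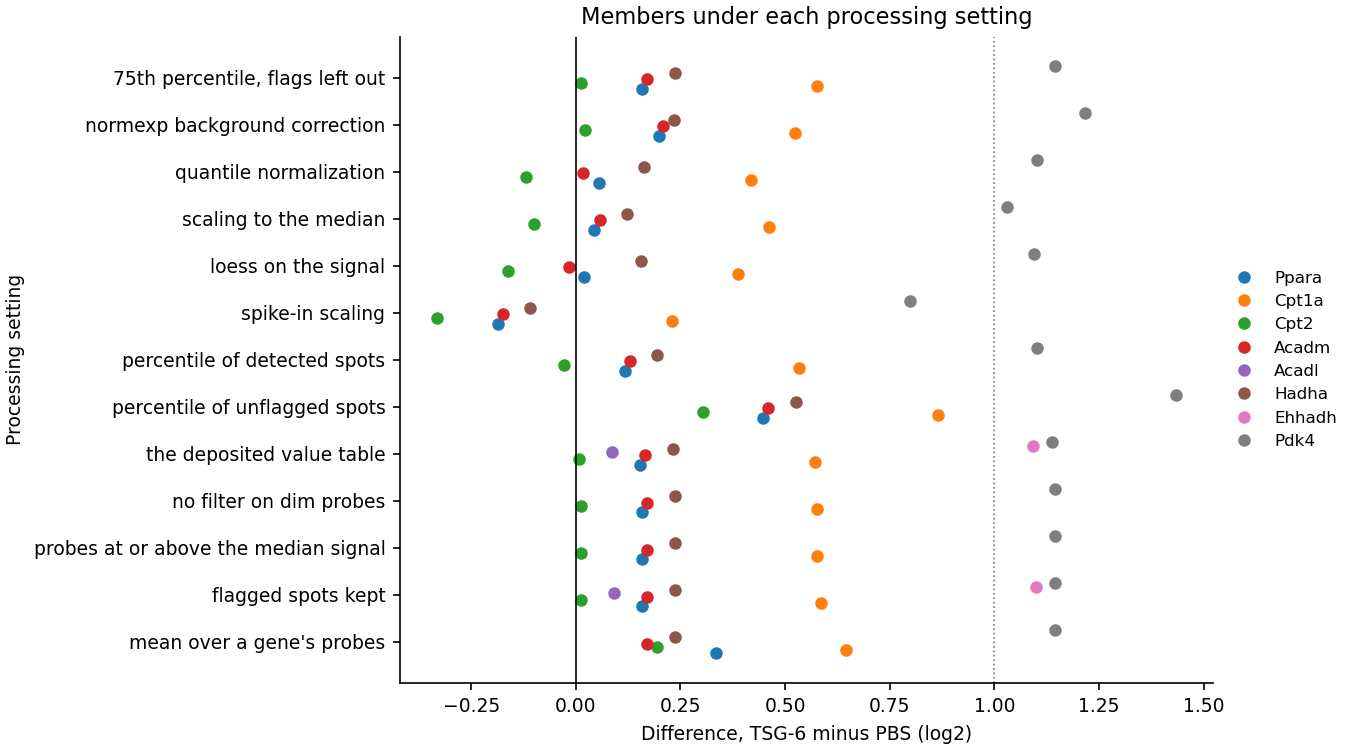
Difference of each member, TSG-6 minus PBS on the log2 scale, under the chosen setting (top) and 12 alternatives; Acadl and Ehhadh appear only where flagged spots are kept. Pdk4 and Cpt1a stay right of 0 in all settings shown, and under spike-in scaling the other 4 measured members lie left of 0.

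Pdk4 was followed through its kinase family and the complex it acts on. Pdk2, the other main liver kinase of the complex, had a level of 1.22 in the TSG-6 pool and 0.02 in the PBS pool, 2.30-fold higher, and its difference was 0.85, under 2-fold, after spike-in scaling. Pdk3 ran the other way, with a level of -4.81 in the TSG-6 pool and -3.89 in the PBS pool, a difference of -0.92. This difference was -0.47 under normexp, and it passed 2-fold after quantile normalization (-1.05), scaling to the median (-1.03), loess (-1.11) and spike-in scaling (-1.26). Pdk1, chosen for mention once its value was known, stood 1.12 higher with a spot that was flagged on both arrays. The phosphatase genes, which reverse the kinases, pointed both ways. Pdp2 was 1.72-fold higher and Pdpr, a phosphatase regulatory subunit, 1.83-fold higher. Pdp1, the other catalytic phosphatase gene of the list, was 1.49-fold lower, and its 2 probes ran from -0.70 to -0.58. It was chosen for mention once its value was known. Pdpr was dim, with levels of -4.87 in the TSG-6 pool and -5.75 in the PBS pool. Its difference was 0.87, and 0.57 under normexp. In the list of the complex and its regulators 1 of 11 measured genes (Pdk2) passed 2-fold on the higher side, where 2.94% of all measured genes did. None did on the lower side with the chosen scaling, where 4.29% of all measured genes did. The median was -0.02, against 0.08 for all genes. The median was 0.30 over 13 genes with flagged spots kept.

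**Figure D4:**
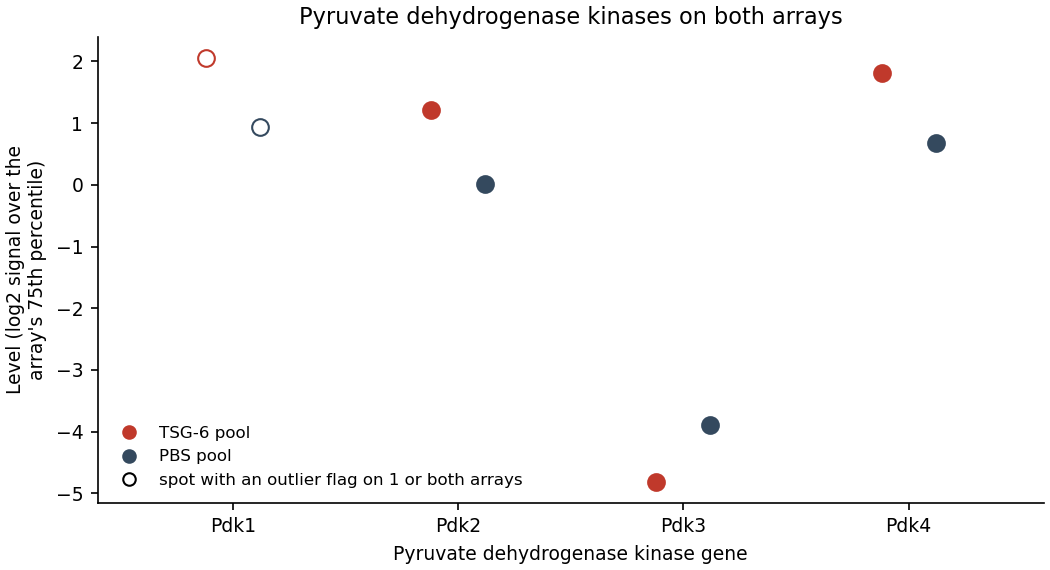
Level of the 4 pyruvate dehydrogenase kinase genes (log2 signal over the array's 75th percentile) in the TSG-6 pool (red, left) and the PBS pool (dark, right), open where the spot carried an outlier flag. Pdk1, Pdk2 and Pdk4 were brighter and Pdk3 dimmer in the TSG-6 pool; levels of different genes come from different probes and are not comparable.

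Ketone body genes centred on the median of all genes. Of 8 measured genes for synthesis, use and export, none was past 2-fold, 5 lay above 0 (as did 57.5% of all measured genes) and 3 below, and the median was 0.09, against 0.08 for all genes. Acat1, the thiolase that joins acetyl-CoA units, differed by 0.39. Bdh1, which interconverts acetoacetate and hydroxybutyrate, differed by -0.05 with its brightest probe, while its 3 probes ran from -0.66 to 0.07. The largest differences of the list were lower ones. Oxct1, the ketone-using transferase that hepatocytes largely lack, was 1.48-fold lower. Slc16a6, a ketone body exporter of the hepatocyte first described in zebrafish, was 1.62-fold lower with its brightest probe (-0.69). The other probe of Slc16a6 differed by -1.23, past 2-fold.

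Other enzymes of mitochondrial beta oxidation had a median of 0.44, against 0.20 for the members and 0.08 for all genes. Their median was 0.20 after loess and 0.19 after quantile normalization, where that of all genes was -0.05 and -0.02. Of 14 measured, 13 lay above 0, where 57.5% of all measured genes and 69.1% of the 4740 bright genes did. None was past 2-fold, and 5 were at least 1.5-fold higher, a size that 10.5% of all measured genes reached. Hadhb, the beta subunit that pairs with Hadha in the trifunctional protein, had a level of 3.78 in the TSG-6 pool and 3.36 in the PBS pool. Its difference was 0.42, against 0.24 for Hadha, but this gap depended on the processing. After loess Hadhb differed by 0.18 and Hadha by 0.16, and under normexp Hadhb by 0.29 and Hadha by 0.23. Acadvl, the very-long-chain dehydrogenase, differed by 0.19, close to Acadm, and by -0.09 after loess. Echs1, a short-chain hydratase, differed by 0.64 and Eci1, an isomerase for unsaturated chains, by 0.64. After loess, Echs1 differed by 0.43 and Eci1 by 0.36. Acad12 (0.92) and Acad10 (0.91) had the largest differences of that list. The 2 probes of Acad12 ran from 0.92 to 1.36, which is past 2-fold. Genes of the citric acid cycle and respiratory chain, which take up the products of beta oxidation, had a median of 0.27 over 22 genes with none past 1.5-fold. Citrate synthase (Cs) differed by 0.16 and Ndufs1, a subunit of complex I, by 0.56.

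In the list around the carnitine shuttle, 1 of 11 measured genes was past 2-fold, on the higher side, where 2.94% of all measured genes were. Acacb, which makes the malonyl-CoA that inhibits carnitine palmitoyltransferase I, had a level of 3.30 in the TSG-6 pool and 1.27 in the PBS pool, 4.08-fold higher, and its 2 probes ran from 2.03 to 2.25. Acacb and Cpt1a were thus both higher. Slc25a20, the carrier that moves the carnitine esters across the inner membrane between Cpt1a and Cpt2, differed by 0.13. Crot, a peroxisomal carnitine octanoyltransferase, was 1.55-fold higher, a difference of 0.63, and 0.32 after loess. Cpt1b, the muscle form, was dim, with levels of -3.29 in the TSG-6 pool and -3.87 in the PBS pool, and differed by 0.58. Prkaa1, a catalytic subunit of the kinase that inactivates Acacb protein, differed by -0.73, and -0.35 under normexp.

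Around Ehhadh, peroxisomal genes had a median of 0.29 over 13 measured genes, 12 of them above 0, against 57.5% of all measured genes and 69.1% of the bright ones, and none past 2-fold. Decr2, a peroxisomal reductase, was 1.55-fold higher. Omega oxidation genes, some of them PPAR-alpha targets, had the highest median of the lists, 0.79. The 2 of 6 past 2-fold were Cyp4a12a (2.43) and Cyp4a12b (1.87), which are near-identical in sequence and uncertain as single values. Of all measured genes, 2.94% were at least 2-fold higher. Both were dim in the PBS pool, with levels of -4.32 and -4.29, and under normexp they differed by 2.04 and 1.58. Cyp4a10 (0.70 with its brightest probe) and Cyp4a14 (0.57), also alike in sequence, were nearer to Cpt1a. The 3 probes of Cyp4a10 ran from 0.70 to 1.31, which is past 2-fold.

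Other PPAR-alpha targets pointed both ways, with a median of 0.23 over 19 genes. Fgf21, the fasting hormone of the liver, had a level of -3.43 in the TSG-6 pool and -2.01 in the PBS pool and was 2.68-fold lower. It was the single gene of that list past 2-fold, with a difference of -1.42, and -1.06 under normexp. Of all measured genes, 4.29% were at least 2-fold lower. Angptl4, an inhibitor of lipoprotein lipase, was 1.56-fold higher, a difference of 0.64, and 0.36 after loess. Acot3, a peroxisomal thioesterase, was 1.63-fold higher and Cidec, a lipid droplet protein, 1.71-fold lower. The 2 probes of Acot3 ran from 0.70 to 1.33, and those of Cidec from -0.78 to -0.28. After spike-in scaling the median of this list was -0.11 and that of ketone body genes -0.26. Those of the citric acid cycle, uptake, carnitine and peroxisomal lists were then -0.08, -0.07, -0.06 and -0.06. The lists of omega oxidation (0.44), other mitochondrial enzymes (0.10) and partners (0.04) kept medians above 0. After loess, medians were 0.65 for omega oxidation, 0.28 for partners, 0.12 for uptake and 0.11 for the carnitine list. They were then 0.10 for peroxisomal genes, 0.06 for other PPAR-alpha targets, 0.04 for the citric acid cycle and -0.03 for ketone body genes. Among the partners of Ppara, 17 of 19 lay above 0, against 57.5% of all measured genes and 69.1% of the bright ones, and none was past 2-fold, with a median of 0.38. Rxra, its main liver partner, was 1.51-fold higher with its brightest probe and Rxrg 1.56-fold. The coactivator Ppargc1a differed by 0.38, and the coregulator Lpin2 by 0.78. Genes of fatty acid uptake and activation had a median of 0.28 over 13, with none past 2-fold. Acsl1, which forms the acyl-CoA that Cpt1a uses, was 1.53-fold higher, a difference of 0.61, and 0.30 after loess. Fabp1, the liver fatty acid binding protein, differed by 0.28, but by -0.02 after loess and -0.05 after quantile normalization. Cd36, a fatty acid receptor with a flagged TSG-6 spot, differed by 0.33.

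**Figure D5:**
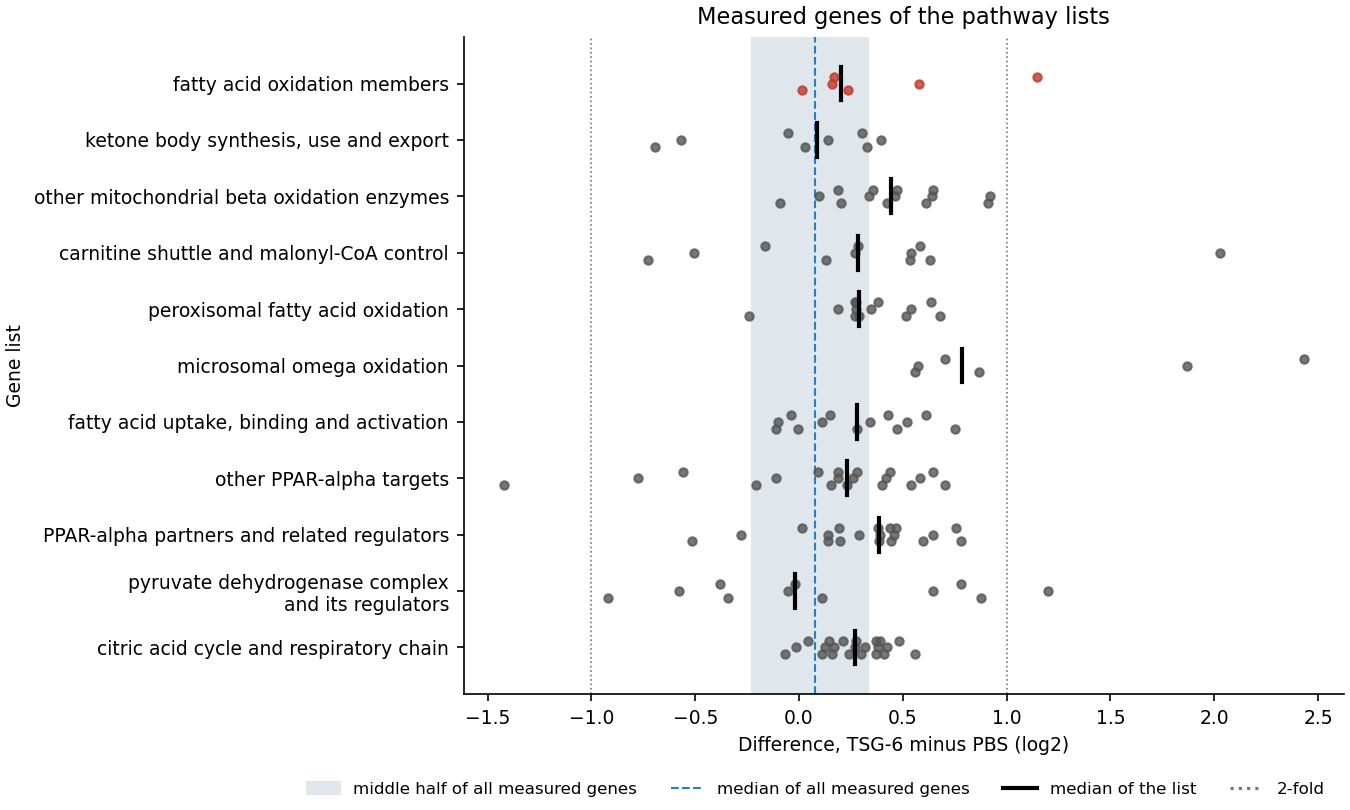
Difference of every measured gene of the members (red) and of 10 further lists, TSG-6 minus PBS on the log2 scale; black bars are list medians, the shaded band holds the central part of all measured genes from -0.23 to 0.33, and the dotted lines mark 2-fold. Ketone body genes (median 0.09) centre on the median of all genes, and the other mitochondrial beta oxidation enzymes (0.44) and omega oxidation genes (0.79) lie to its right.

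Markers of cell types differed alongside the members. The 6 measured hepatocyte markers were all higher in the TSG-6 pool with scaling to the 75th percentile. Their median difference was 0.36, and they had a summed signal, in units of the array's 75th percentile, of 139.1 in the TSG-6 pool and 105.7 in the PBS pool. All 9 markers of activated stellate cells were lower, with a median of -0.97 and a summed signal of 36.2 in the TSG-6 pool and 56.8 in the PBS pool. Relative to the median of the hepatocyte markers, Pdk4 stood 0.78 and Cpt1a 0.21 higher, whereas Hadha stood at -0.12, Acadm at -0.19, Ppara at -0.20 and Cpt2 at -0.35. In whole liver, fewer cells of a type and less RNA per cell cannot be told apart. Of 9 markers of neutrophils and their precursors, 6 were past 2-fold on the higher side, where 2.94% of all measured genes were, and the median was 3.19. Those 6 were Mpo, Elane, Ctsg, Ltf, Camp and Ngp. S100a8 (0.85), S100a9 (0.18) and Cxcr2 (-0.19) were not past 2-fold. Endothelial markers had a median of 0.33, with 5 of 6 above 0, near that of hepatocyte markers, and a summed signal of 26.0 in the TSG-6 pool and 21.5 in the PBS pool. The medians were 0.16 for 8 macrophage markers, -0.10 for 7 lymphocyte markers and -0.29 for 3 cholangiocyte markers. The macrophage markers pointed both ways: 5 lay above 0, none by more than 0.29, and 3 below. Those below were Itgax (-1.43, past 2-fold), Ccr2 (-0.56) and Adgre1 (-0.25). Adipocyte markers pointed both ways: Adipoq, the adipocyte hormone adiponectin, had a level of 0.55 in the TSG-6 pool and -0.05 in the PBS pool and was 1.51-fold higher, Cfd was 1.55-fold higher and Cidea 3.29-fold lower, while Plin1, Lep and Ucp1 were not well above background on both arrays. Of 6 striated muscle markers Ckm, Myh4 and Actn2 were not well above background on both arrays, and the other 3 differed by -1.59 to 0.53. The summed signal of the 3 measured adipocyte markers was 1.73 in the TSG-6 pool and 1.80 in the PBS pool, and that of the 3 muscle markers 0.215 in the TSG-6 pool and 0.319 in the PBS pool. The part of cell composition in the members' values was not tested.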

How the data were processed

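Total RNA of fibrotic mouse liver was labelled with Cy3 from 0.2 ug, per the labels' protocols. The deposited scanner files hold linear spot intensity values; the processed signal was background-subtracted and detrended within the array by Agilent Feature Extraction 11.5.1.1, per the file headers, whereas the submitters' processing notes name version 10.7. The deposited value table holds log2 values that equal the log2 processed signal minus 1 constant per array within 0.001 for 99.7% of probes, with column medians of -3.77 for TSG-6 and -3.90 for PBS, which settles the scale and the direction; no centring between arrays was seen.

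Spots with a non-uniformity or population outlier flag were left out (6.44% on the TSG-6 array and 3.40% on the PBS array), log2 signals were set relative to the 75th percentile of all non-control spots, and replicate spots were averaged. Detection of a probe required 50% or more of its spots to be well above background. Accessions were matched without version to symbols through a RefSeq table of GRCm38.p6, used for gene names only, since the array design is on mm9: 26762 of 55681 probes matched a gene. For a gene with several probes, the one with detection on more arrays was used, and among equals the brightest. The steps were tested on simulated data. Alternatives were normexp background correction (limma 3.58.1, offset 50, on the median spot signal, in place of the mean that was planned, and the median local background), 6 other scalings and normalizations, the value table, 2 filters on dim probes, keeping flagged spots and averaging a gene's probes. The members, the 10 further lists and the 9 marker lists were chosen with earlier results of these data known. Cpt1b is on 2 lists. Some genes of the lists are counted but not reported by name here. Named genes are all members, up to 4 genes per list with the largest difference, and a fixed set of 16 pathway genes; others are said to be named after their values were seen. Analyses ran in Python 3.11.15 and R 4.3.3. With 1 array per group, the number of arrays limits the precision.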

Additional observations from a re-analysis of the deposited data

How the results depend on the processing

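Each result was recomputed under 12 alternatives. The members' median difference (0.20) was -0.14 after spike-in scaling and 0.49 with the percentile of unflagged spots, since these add a constant; it was from 0.09 to 0.29 in the others. All genes' median (0.08) moved with it, to -0.27 and 0.37, and to -0.02 after quantile normalization, -0.04 with scaling to the median and -0.05 after loess. The count of members past 2-fold (1) was 0 after spike-in scaling and 2 with flagged spots kept and in the deposited value table, where Ehhadh is counted. The difference of Pdk4 ran from 0.80 to 1.43 and that of Cpt1a from 0.23 to 0.87. The 1096 measured genes past 2-fold were 692 under normexp, 1864 when dim probes were not filtered out, 319 among probes at or above the median signal, and 97 among genes at or above the dimmest measured member, a filter chosen after seeing the data; these filters change the number of genes measured, and for normexp the cause was not tested. Of 781 values of single genes and lists under the alternatives, 548 moved by less than the spot SD, 233 moved by more, and none past 2-fold changed sign. No paired analysis was possible because each group has 1 array, and the slide could not be fitted as a block, both arrays lying on 1 slide.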

Other observations

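Outlier flags took 20 further genes of the pathway lists out of the counts, and their values with flagged spots kept are given here as a description. Of the 20, 18 lay above 0 and 2 below, with a median of 0.45 and a range from -0.56 to 1.41. With flagged spots kept, 57.8% of all 16427 genes lay above 0, and with them left out 69.1% of the 4740 bright genes did. Flagged spots were mostly bright. Their median signal was 5421 on the TSG-6 array and 5881 on the PBS array, against 178 and 210 for all non-control spots. The genes named in this paragraph were chosen after their values were seen. Acads, the short-chain counterpart of the dehydrogenases encoded by Acadl and Acadm, differed by 0.61, with its flag on the TSG-6 array. Bbox1, the last enzyme of carnitine synthesis, differed by 0.76, Slc16a7, a monocarboxylate transporter, by 0.995, and Cyp4a32, which resembles other Cyp4a genes in sequence, by 1.41. Prkaa2, the other catalytic subunit gene of the kinase to which Prkaa1 belongs, was measured without a flag and differed by 0.54, opposite in sign to Prkaa1.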
